A study of Mus musculus with 61 samples.

Results

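The comparison described here is between D2 nuclei of mice with a history of morphine and D2 nuclei of mice with a history of saline, both killed after a saline challenge. Its members are 15 of the 61 libraries of the series, chosen by their labels: 8 libraries labelled MS (morphine repeatedly, then a saline challenge) and 7 labelled SS (saline at both times). Per the labels' protocols, the mice were males that carried a D2-Cre driver with an LSL-eGFP::L10a allele, so that cells with active Cre make eGFP joined to the ribosomal protein L10a, and both groups share this genotype. Saline or morphine was given daily for 15 days, 30 days of withdrawal in the home cage followed, and the mice were killed 1 h after the challenge. The nucleus accumbens was punched from both hemispheres, nuclei were sorted by fluorescence, and total RNA was made into stranded libraries with a kit for very small inputs. The labels do not assign a morphine dose to any mouse, and they do not say whether a library comes from 1 animal or from a pool. The p-values below therefore measure the spread between these libraries, part of which may be technical. Used beside them were the D2 groups challenged with morphine, MM (morphine repeatedly, 7 libraries) and SM (saline repeatedly, 7 libraries), and the MS (9) and SS (8) libraries of nuclei from mice with the D1-Cre driver and the same green allele.

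D2 neurons are the striatal projection neurons that carry the dopamine D2 receptor and make enkephalin, an endogenous opioid peptide. Together with D1 neurons, which make dynorphin and substance P, they make up most neurons of the nucleus accumbens, a striatal region that takes part in reward and in the lasting behavioural effects of opioids. Opioid receptors inhibit adenylyl cyclase, and long exposure to opioids is known for compensating changes in cAMP signalling, so that genes of these pathways are the ones usually followed after withdrawal.

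Total counts ran from 15948986 to 23592399 in the 15 libraries (median 17925588) and did not differ detectably between MS and SS (difference of means 774203, two-sided exact permutation p = 0.54). Counts also fell on genes that the striatum is not known to transcribe. Over 1459 protein-coding olfactory and vomeronasal receptor genes, which detect odours and pheromones in the nose, each of the 15 libraries held 72265 to 139416 counts. Per library total and per kilobase of gene span, these give a background density for each library. Spread over the span of all genes, that density would account for 42.8% of counts in the lowest MS library, 60.5% at the median and 69.6% in the highest (mean 57.3 ± 9.52%, SD, n = 8). The SS libraries ran from 60.1% to 74.7% with a median of 69.7% (mean 67.3 ± 6.59%, SD, n = 7). The ranges overlap, with MS replicates 1, 2, 6 and 7 below every SS library. The means differed by -10.0 percentage points (two-sided exact permutation p = 0.0398, 0.0597 after adjustment over 3 library measures). With each of the 15 libraries left out in turn, the difference stayed between -11.8 and -7.95 points and its exact permutation p lay over 0.05 in 8 of 15 cases. A background estimated from a second set of 156 genes that the striatum is not known to use (keratin-associated, defensin and bitter taste receptor genes) differed by -15.3 points (exact permutation p = 0.0109). Its level was higher, with means of 74.1% in MS and 89.4% in SS. In D2 MM replicate 7 it came to 104% and in D2 SM replicate 6 to 103%, more than all counts. The share is therefore a rough estimate whose level depends on the genes chosen.

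**Figure D1:**
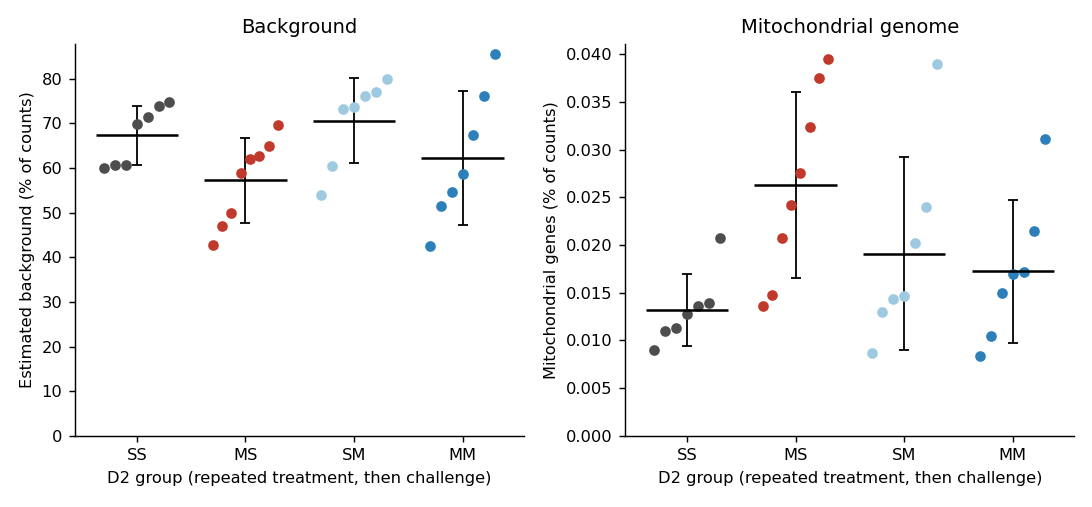
Estimated background (left, % of counts) and counts on the mitochondrial genome (right, % of counts) in the 4 D2 groups, 1 point per library in order of value, with the mean (line) and SD (bar). The MS libraries average 57.3% background against 67.3% in SS, and 0.0263% mitochondrial counts against 0.0132%.

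This background bears on every gene's share of counts. A gene transcribed well above it takes a larger share in a library of low background. In a fit of all 29 D2 libraries, 24998 of the 41125 genes tested had a slope on the log2 background density that passed (edgeR, Benjamini-Hochberg adjusted p under 0.05). Of these, 13807 slopes were positive and 11191 negative. For Drd2, which codes for the D2 receptor itself, the slope was -2.44 on the log2 scale for each doubling of the background, and for Oprm1, which codes for the mu opioid receptor that morphine acts on, it was 0.01. Relative to their library's background, 27.2% of the tested genes (11183) lay at 2 times or more. The background density was therefore a covariate of the fit, and values without it are given beside many of the results. The common biological coefficient of variation was 0.0894 with the covariate and 0.154 without it. Below, CPM values are counts relative to the library total, in the usual CPM unit, after TMM scaling, and a fold change is a log2 value of MS over SS from edgeR with its standard error (SE).

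The sorted nuclei carried the genes of the labelled cell type. Per kilobase of gene span, Penk, the enkephalin precursor, lay at 116 times the background, Drd2 at 30.8 times and Gpr6, an orphan receptor of D2 neurons, at 21.9 times. The D1 receptor gene Drd1 lay at 5.96 times. Summed, the 7 D2 markers lay at 3.63 to 10.2 times background in MS and 2.73 to 4.82 times in SS. The 9 D1 markers lay at 1.51 to 1.87 and 1.38 to 1.70 times. Markers of cortical neurons lay at 1.20 to 1.46 times over both groups, those of microglia at 1.05 to 1.43 times and those of endothelial cells at 1.27 to 1.66 times. Those of astrocytes lay at 1.25 to 1.69 times, of striatal interneurons at 1.35 to 1.87 times and of the oligodendrocyte lineage at 1.33 to 2.19 times. No marker in these lists had 0 counts in any of the 15 libraries. In such bulk samples, fewer cells of a type and less RNA per cell cannot be told apart.

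No gene passed between MS and SS. With the background covariate, edgeR called 0 of 41125 genes (0%) at an adjusted p under 0.05, and the smallest adjusted p was 0.167. At an unadjusted p under 0.05 there were 5682 genes (13.8%), of which 2973 were higher in MS (7.23%) and 2709 lower (6.59%). With TMM factors taken only from genes at 2 times background or more, 1155 were higher and 5156 lower, and after subtraction of the background from each library 419 and 2531 of 11183, so the balance of directions rests on the scaling. Without SS replicate 6 the count was 3457. Without the covariate edgeR again called 0 genes (0%), with 13164 at an unadjusted p under 0.05 (32%), 7646 higher (18.6%) and 5518 lower (13.4%). These counts were lower when the 4 MS libraries of low background were left out, a fit that keeps only 4 MS libraries and has less power. A smaller group alone also gives fewer small p-values, here and in the lists below, and its part was not tested. Without MS replicates 1, 2, 6 and 7, 1664 of 42503 genes (3.92%) had an unadjusted p under 0.05 with the covariate and 939 (2.21%) without it, and 0 were called. Scaled CPM placed all 8 MS libraries above all 7 SS libraries for 29 genes (0.0705%) and below them for 59 genes (0.143%). By direction alone, with the covariate, 21729 of all 41125 genes were higher in MS. At 2 times background or more 7288 of 11183 were, and 16.8% had an unadjusted p under 0.05. The rule for naming genes, which asks for at least 1 log2 CPM and 2 times background, was open to 5452 genes. Of these, 4647 were higher and 805 lower, 1191 and 88 of them at such a p.

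Among genes at 2 times background or more, Dtymk had the smallest p. It codes for thymidylate kinase, which makes the deoxythymidine diphosphate needed for DNA synthesis, and lies on chromosome 1 at 93792576 to 93801934 (mm10, ENSMUSG00000026281.15). Its lowest MS library held 10.0 CPM, the median 11.9 and the highest 14.6, against 8.39, 8.79 and 9.17 CPM in SS. All 8 MS libraries lay above all 7 SS libraries, and did so too after each was adjusted to the mean background (10.2 to 12.4 against 8.16 to 9.84 CPM). The fold change was 0.34 ± 0.06 (SE, edgeR adjusted p = 0.167), and 0.48 without the covariate. DESeq2 called it, with 0.35 ± 0.07 (SE, adjusted p = 0.0431). Without the MS libraries of low background it stood at 0.30. In D1 nuclei the same comparison gave 0.08.

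The other 9 leading genes that were higher in MS had fold changes from 0.18 to 0.52, each with an edgeR adjusted p of 0.286. Among them, Eif4h codes for an initiation factor that helps the helicase of translation, Hnrnpc for a protein that packages nascent nuclear RNA, Brd8 for a bromodomain subunit of a histone acetyltransferase complex and Uba2 for a subunit of the SUMO-activating enzyme. Eif4h stood at 24.8, 30.7 and 48.9 CPM (lowest, median and highest) in MS and at 21.2, 23.5 and 27.8 in SS. Its fold change was 0.25 ± 0.06 (SE) and 7 of 8 MS libraries lay above every SS library. For Hnrnpc the values were 35.0, 41.3 and 64.2 CPM in MS against 26.1, 30.5 and 36.1 in SS, with a fold change of 0.28 ± 0.07 (SE). Here too 7 of 8 MS libraries lay above the highest SS library.

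Tpt1, which codes for an abundant growth-related protein that is translationally controlled, had the largest value of the 10, at 0.52 ± 0.13 (SE). It stood at 6.18, 9.68 and 13.5 CPM in MS and at 4.01, 4.93 and 7.30 in SS, and 6 of 8 MS libraries lay above every SS library. Brd8 had 0.26, Uba2 0.25, Fam206a 0.34, the vesicle-tethering gene Trappc3 0.31, the microtubule plus-end gene Slain1 0.18 and the Wnt pathway gene Amer2 0.27. Without the covariate each of the 10 was larger, from 0.32 to 0.75. Without the MS libraries of low background they ran from 0.13 to 0.46.

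The 10 leading genes on the lower side lay at 2.02 to 2.59 times background. Pck1 codes for the enzyme that commits liver and kidney to glucose synthesis and Slc37a4 for the transporter that brings glucose 6-phosphate into the endoplasmic reticulum. Insl6, Lyzl1 and Lyzl6 are known mainly from testis, Serpina3c and Serpina3j belong to a cluster of closely similar protease inhibitor genes, and Ghrhr codes for the pituitary receptor of growth hormone-releasing hormone. Pck1 stood at 3.87, 4.85 and 7.11 CPM in MS and at 5.54, 7.22 and 8.03 in SS. The ranges overlap, with 6 of 8 MS libraries below every SS library, and the fold change was -0.43 ± 0.12 (SE, edgeR adjusted p = 0.286).

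Insl6 stood at 3.08, 3.78 and 4.63 CPM in MS and at 4.09, 5.43 and 7.51 in SS, with a fold change of -0.44 ± 0.12 (SE). Lrrc23, a gene of motile cilia and sperm tails, had -0.34 ± 0.10 and Ascl3, a transcription factor of secretory epithelia, had -0.39 ± 0.12 (SE). The remaining genes lay between -0.33 and -0.24. Without the covariate the 10 ran from -0.49 to -0.15, the last that of Slc37a4, for which 3 of 8 MS libraries lay below every SS library. Without the MS libraries of low background they ran from -0.43 to -0.16, with Pck1 at -0.27 and Ghrhr at -0.16 (-0.24 with all libraries). Reads of Serpina3c and Serpina3j may be split between close copies, so that their values of -0.30 and -0.32 are uncertain. For none of these 10 genes did all 8 MS libraries lie below all 7 SS libraries. Under subtraction of the estimated background from each library, the 11183 genes at 2 times background or more shifted to a median of -0.14. These 10 ran from -1.10 to -0.73. For genes so near the background, that value depends on the estimate itself.

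**Figure D2:**
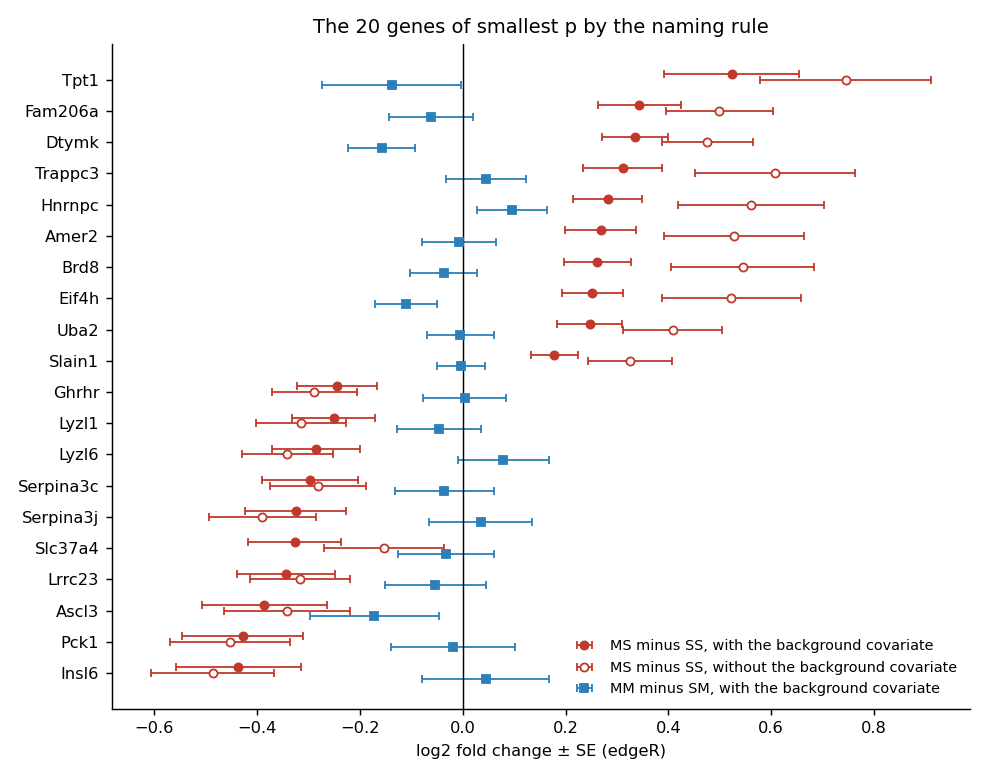
Log2 fold change with its SE for the 20 leading genes, for MS minus SS with (filled circles) and without (open circles) the background covariate and for MM minus SM with it (squares). The higher genes move toward 0 when the background enters the fit, and the squares lie on both sides of 0.

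Genes that define striatal projection neurons had values that depended on the covariate. In scaled CPM, Drd2 stood at 433, 929.5 and 2483 in MS (lowest, median, highest) and at 398, 594 and 862 in SS. Only 4 of 8 MS libraries lay above every SS library. Without the covariate its fold change was 0.91, and with it 0.18 ± 0.20 (SE, edgeR adjusted p = 0.690). In the 4 MS libraries with the higher background, Drd2 stood at 433 to 768 CPM, inside the SS range, and without the other 4 the fold change was -0.05. Adjusted to the mean background, the MS libraries ran from 427 to 1212 CPM and the SS libraries from 584 to 897.

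Penk ran from 151 to 524 CPM in MS with a median of 359 and from 135 to 300.3 in SS with a median of 204. Its fold change was 0.75 without the covariate and 0.41 ± 0.21 (SE, edgeR adjusted p = 0.385) with it. Adora2a, an adenosine receptor gene that D2 neurons carry and D1 neurons largely lack, ran from 57.3 to 191 CPM in MS and from 46.9 to 96.2 in SS. It had 0.87 without and 0.36 ± 0.16 (SE, edgeR adjusted p = 0.338) with the covariate. Gpr6 had 0.84 and 0.53 ± 0.18 (SE, adjusted p = 0.289), and Sp9, a transcription factor needed for D2 neurons to form, had 0.60 and 0.32 ± 0.09 (SE, adjusted p = 0.286). Sp9 lay above every SS library in 7 of 8 MS libraries. As a list, 7 of 7 tested D2 markers were higher in MS, 3 of them at an unadjusted p under 0.05 (42.9%) and 0 called. Their median was 0.32 with the covariate and 0.75 without it, and 0.27 without the MS libraries of low background. Such a p was found for 13.8% of all genes tested and 16.8% of those at 2 times background or more. Genes open to the naming rule (5452) had it in 1191 higher and 88 lower cases.

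The 24 genes shared by D1 and D2 projection neurons gave the same picture. All 24 were higher in MS, with a median of 0.28 (0.75 without the covariate), beside a median of 0.01 over all genes tested (-0.05 without it) and of 0.08 over tested genes at 2 times background or more. Of the 24, 6 had an unadjusted p under 0.05 (25%), and 0 did without the MS libraries of low background. With the second background set the median of the 24 was 0.11. With all libraries, such a p was found for 13.8% of all genes tested and 16.8% of those at 2 times background or more. It was also found for 1191 higher and 88 lower genes of the 5452 open to the naming rule. Ppp1r1b, which codes for DARPP-32, the phosphatase inhibitor through which dopamine acts on striatal signalling, ran from 35.7 to 171 CPM in MS and from 31.0 to 61.6 in SS. The highest value, in MS replicate 2, came from the library of lowest background. Its fold change was 0.46 ± 0.21 (SE, edgeR adjusted p = 0.336) with the covariate and 1.03 without it. Rgs2, which limits G protein signalling, had 0.36 ± 0.12 (SE) and the GABA-synthesising enzyme genes Gad1 and Gad2 had 0.29 ± 0.12 and 0.24 ± 0.09 (SE).

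D1 markers differed less as a list. Of the 9, 6 were higher and 3 lower, with a median of 0.03 (-0.04 with TMM from genes at 2 times background or more). Drd1 stood at 8.58, 14.5 and 27.9 CPM in MS and at 5.70, 9.18 and 11.6 in SS, with 0.35 ± 0.16 (SE, edgeR adjusted p = 0.346), beside 0.32 ± 0.17 for Tac1, the substance P precursor, and -0.03 ± 0.07 for Pdyn, the dynorphin precursor. Pdyn lay at 2.38 times background in these D2 nuclei.

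**Figure D3:**
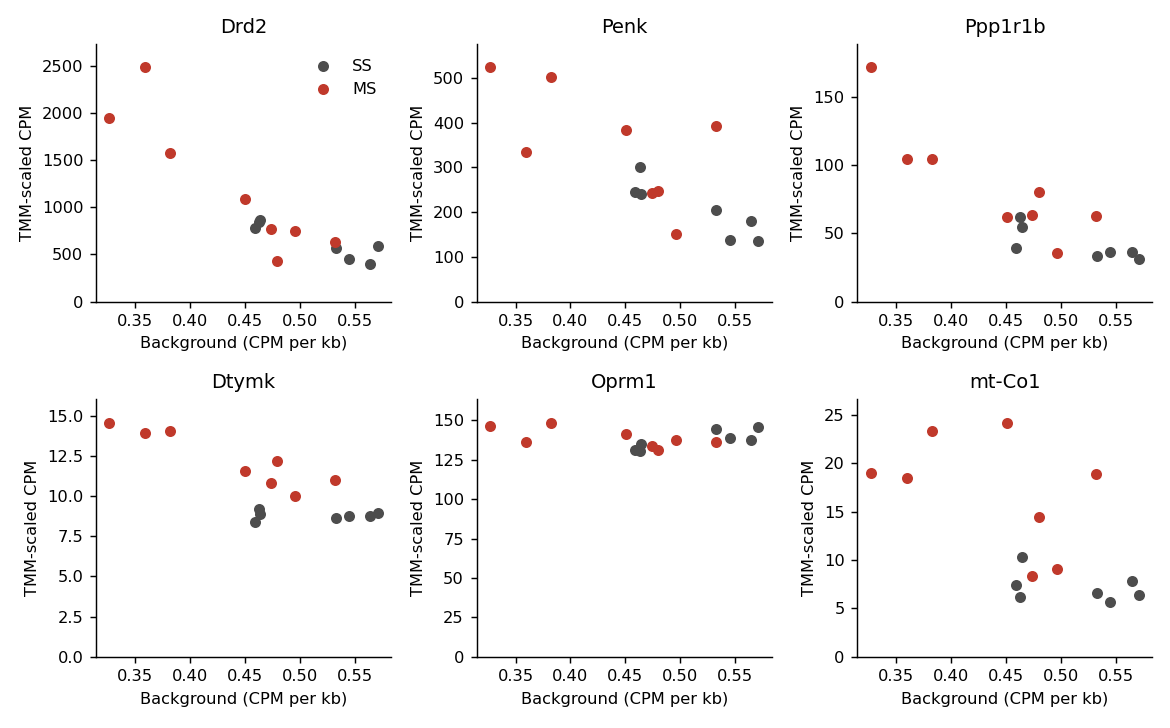
TMM-scaled CPM of 6 genes (vertical) against the background density of the library in CPM per kb (horizontal), 1 point per library, for the 8 MS and 7 SS libraries. Drd2, Penk and Ppp1r1b are highest in libraries of low background, Oprm1 stays between 131 and 149 CPM in all 15, and Dtymk is higher in each MS library than in each SS library.

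Of the opioid system, 8 genes were tested, and 5 were higher and 3 lower in MS, with a median of 0.01 (-0.05 with TMM from genes at 2 times background or more and -0.01 with the second background set). The mu receptor gene Oprm1 stood at 131, 137 and 149 CPM in MS and at 131, 138 and 146 in SS. The groups coincide, and the fold change was 0.02 ± 0.04 (SE, edgeR adjusted p = 0.868). Its span of introns and exons lay at 1.05 times background, so that little of this count can be set above it. Oprd1, the delta receptor gene, lay at 2.66 times background and had 0.01 ± 0.07 (SE), against 0.31 without the covariate. Oprk1, the kappa receptor gene, ran from 16.1 to 36.2 CPM in MS and from 13.4 to 19.0 in SS, with 0.33 ± 0.12 (SE, edgeR adjusted p = 0.292), and 5 of 8 MS libraries lay above every SS library. Pomc, the precursor of beta-endorphin, had -0.28 ± 0.10 (SE) at 1.96 times background.

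Genes of the cAMP route downstream of these receptors differed by list. In the cascade of G proteins, protein kinase A and DARPP-32, 26 of 27 were higher in MS, with a median of 0.18 (0.59 without the covariate). At an unadjusted p under 0.05 there were 7 (25.9%), against 13.8% of all genes tested and 16.8% of those at 2 times background or more. Of the 5452 genes open to the naming rule, 1191 higher and 88 lower had such a p. Only 1 of 27 had such a p without the MS libraries of low background (against 3.92% of all genes), where the median was 0.09, and with the second background set it was 0.07. Akap5, which anchors protein kinase A at synapses, had 0.38 ± 0.14 and Prkaca, its catalytic subunit, 0.18 ± 0.07 (SE). Adenylyl cyclases and phosphodiesterases gave 16 of 22 higher with a median of 0.06 (-0.0028 with TMM from genes at 2 times background or more) and 1 member under an unadjusted p of 0.05, which was lower. Adcy5, the main striatal adenylyl cyclase, ran from 546 to 2008 CPM in MS and from 428 to 785 in SS. It had 0.28 ± 0.21 (SE, edgeR adjusted p = 0.530) with the covariate and 1.03 without it. Pde10a, the striatal phosphodiesterase that degrades cAMP and cGMP, had 0.30 ± 0.21 (SE) against 1.02. Creb1, the cAMP-responsive transcription factor, had 0.05 ± 0.06 (SE), and 11 of 13 genes of its family and coactivators were higher, with a median of 0.12. RGS proteins, which end G protein signals, gave 10 of 15 higher with a median of 0.08. Among them Rgs4 had 0.39 ± 0.15 (SE) and Rgs9, the striatal member, 0.35 ± 0.22 (SE) against 1.10 without the covariate.

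Immediate early genes, which neurons transcribe within minutes of activity, were read 1 h after the saline challenge. Of 31, 25 were higher and 6 lower in MS, with a median of 0.15 (0.28 without the covariate). At an unadjusted p under 0.05 there were 9 higher and 2 lower (35.5%), and 0 were called. The share was 13.8% over all genes tested and 16.8% over those at 2 times background or more. Among the 5452 genes open to the naming rule, 1191 higher and 88 lower had such a p. When the MS libraries of low background were left out, 2 of 31 had such a p (median 0.11), against 3.92% of all genes. After subtraction of the background, which covers 21 of the 31, the median was 0.03. Egr1 ran from 13.7 to 84.5 CPM in MS with a median of 38.6, and from 15.96 to 31.2 in SS with a median of 20.0. The values overlap: 5 of 8 MS libraries lay above every SS library and 1 below. Its fold change was 0.58 ± 0.23 and that of its relative Egr3 0.39 ± 0.14 (SE, edgeR adjusted p = 0.298 and 0.289). Per1, a clock gene that activity and glucocorticoids also induce, had 0.40 ± 0.18 (SE). Fos, the transcription factor most used as a mark of recently active neurons, stood at 2.95, 4.53 and 6.20 CPM in MS and at 3.53, 3.96 and 4.94 in SS. The SS values lie inside the MS range, and the fold change was 0.04 ± 0.14 (SE, edgeR adjusted p = 0.906). Fosb had 0.05 ± 0.14 (SE). Arc, a regulator of synaptic strength, had 0.42 ± 0.28 (SE, edgeR adjusted p = 0.484).

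Genes induced by glucocorticoids, the stress hormones, gave 9 of 16 higher with a median of 0.03 (-0.04 with TMM from genes at 2 times background or more and -0.02 with the second background set). Fkbp5 had -0.08 ± 0.05 and Sgk1 0.03 ± 0.06 (SE). Circadian clock genes gave 20 of 22 tested higher, with a median of 0.14 (0.39 without the covariate and 0.08 with the second background set). Of them 7 had an unadjusted p under 0.05 (31.8%), against 13.8% of all genes and 16.8% at 2 times background or more. Such a p was also found for 1191 higher and 88 lower of the 5452 genes open to the naming rule. Without the MS libraries of low background 1 clock gene had it (against 3.92% of all genes). Per2 had 0.30 ± 0.10 and Nr1d1, a repressor in the clock, 0.33 ± 0.13 (SE). In the ERK pathway 23 of 26 were higher, with a median of 0.10 and the feedback inhibitor Spry2 at 0.39 ± 0.17 (SE).

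Synaptic lists had small medians with the covariate. Their counts of higher members stand beside 21729 of all 41125 genes tested and 4647 of the 5452 genes open to the naming rule. Whether any list differs from genes of like level was not tested. Calcium, sodium and HCN channel genes gave 28 of 31 higher (median 0.14, 0.51 without the covariate) and potassium channel genes 35 of 41 (0.08, 0.38). Synaptic vesicle genes gave 37 of 41 (0.08, 0.37) and postsynaptic scaffold genes 29 of 34 (0.13, 0.45). Adhesion genes gave 42 of 44 (0.09, 0.29), GABA receptor and GABA handling genes 18 of 20 (0.10, 0.36), and AMPA and NMDA receptor genes 13 of 19 (0.07, 0.42). These medians rest on the scaling as well. With TMM from genes at 2 times background or more they ran from 0.0006 (AMPA and NMDA receptors) to 0.07 (calcium, sodium and HCN channels). With the second background set they ran from 0.007 (AMPA and NMDA receptors) to 0.04 (postsynaptic scaffold). Among the vesicle genes, Vamp2, the vesicle protein that drives fusion, ran from 18.2 to 60.6 CPM in MS and from 12.4 to 23.5 in SS, with 0.49 ± 0.16 (SE, edgeR adjusted p = 0.287). Syn1, which tethers vesicles to actin, had 0.23 ± 0.07 and the calcium sensor gene Syt4 0.44 ± 0.15 (SE). Of the receptors, Gria1, an AMPA receptor subunit, had 0.16 ± 0.11 against 0.69 without the covariate, Gabra4 0.14 ± 0.11 and the cannabinoid receptor gene Cnr1 0.15 ± 0.10 (SE).

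Most genes of the basic cell machinery were higher in MS, as were 4647 of the 5452 genes open to the naming rule. The shares below stand beside 13.8% of all genes tested and 16.8% of those at 2 times background or more with an unadjusted p under 0.05. Of the 5452 genes open to the naming rule, 1191 higher and 88 lower had such a p. Of the 47 nuclear genes of oxidative phosphorylation, which code for the respiratory chain and ATP synthase, all 47 were higher, 23 at an unadjusted p under 0.05 (48.9%), with a median of 0.22 (0.41 without the covariate). Ndufa5, a subunit of complex I, ran from 9.14 to 13.4 CPM in MS and from 6.19 to 9.74 in SS, with 0.33 ± 0.09 (SE). Atp5g3, of the ring of ATP synthase, had 0.42 ± 0.13 (SE). Of 57 cytosolic ribosomal protein genes 56 were higher, 18 at an unadjusted p under 0.05 (31.6%), with a median of 0.20 (0.42 without the covariate). Ribosomal protein genes share sequence with many processed pseudogenes, so that their counts are uncertain. Splicing factor genes gave 49 of 50 higher, 16 higher and 1 lower at an unadjusted p under 0.05 (34%), with a median of 0.23 (0.66 without the covariate and 0.11 with the second background set). Such a p was left in 2 of 50 without the MS libraries of low background (against 3.92% of all genes). Hnrnpk had 0.46 ± 0.14 and Hnrnpm 0.28 ± 0.10 (SE).

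Proteasome genes gave 29 of 31 higher (median 0.14) with Psmd2 at 0.35 ± 0.10 (SE), and heat shock and chaperone genes 22 of 30 (median 0.16) with Hspa9, the mitochondrial chaperone, at 0.27 ± 0.08 (SE). Chromatin modifier and remodeller genes gave 51 of 60 higher, with a median of 0.13. At an unadjusted p under 0.05 there were 16 higher and 0 lower (26.7%). Among all genes tested the share was 13.8%, and 16.8% at 2 times background or more. Among the 5452 genes open to the naming rule, 1191 higher and 88 lower had such a p. In the fit without the MS libraries of low background, 0 of 60 had such a p and the median was 0.06, and with the second background set it was 0.05. The remodeller genes Arid1a at 0.20 ± 0.07 and Chd8 at 0.21 ± 0.07 and the demethylase gene Kdm5c at 0.27 ± 0.09 (SE) led them. Subtraction of the background was done only for the 11183 genes at 2 times background or more, which then had a median of -0.14. There the splicing list stood at 0.31 (41 of 50 members) and the oxidative phosphorylation list at 0.05 (36 of 47). The ribosomal list stood at -0.04 (48 of 57) and the proteasome list at -0.03 (21 of 31). These 2 medians differ in sign from those of the whole lists, which hold more members. They stay above the median of the 11183 genes. Without the MS libraries of low background, the oxidative phosphorylation median was 0.12 with 5 of 47 members under an unadjusted p of 0.05, and the ribosomal median 0.12 with 4 of 57. In that fit 3.92% of all genes had such a p, and 503 of the 11183 genes at 2 times background or more.

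**Figure D4:**
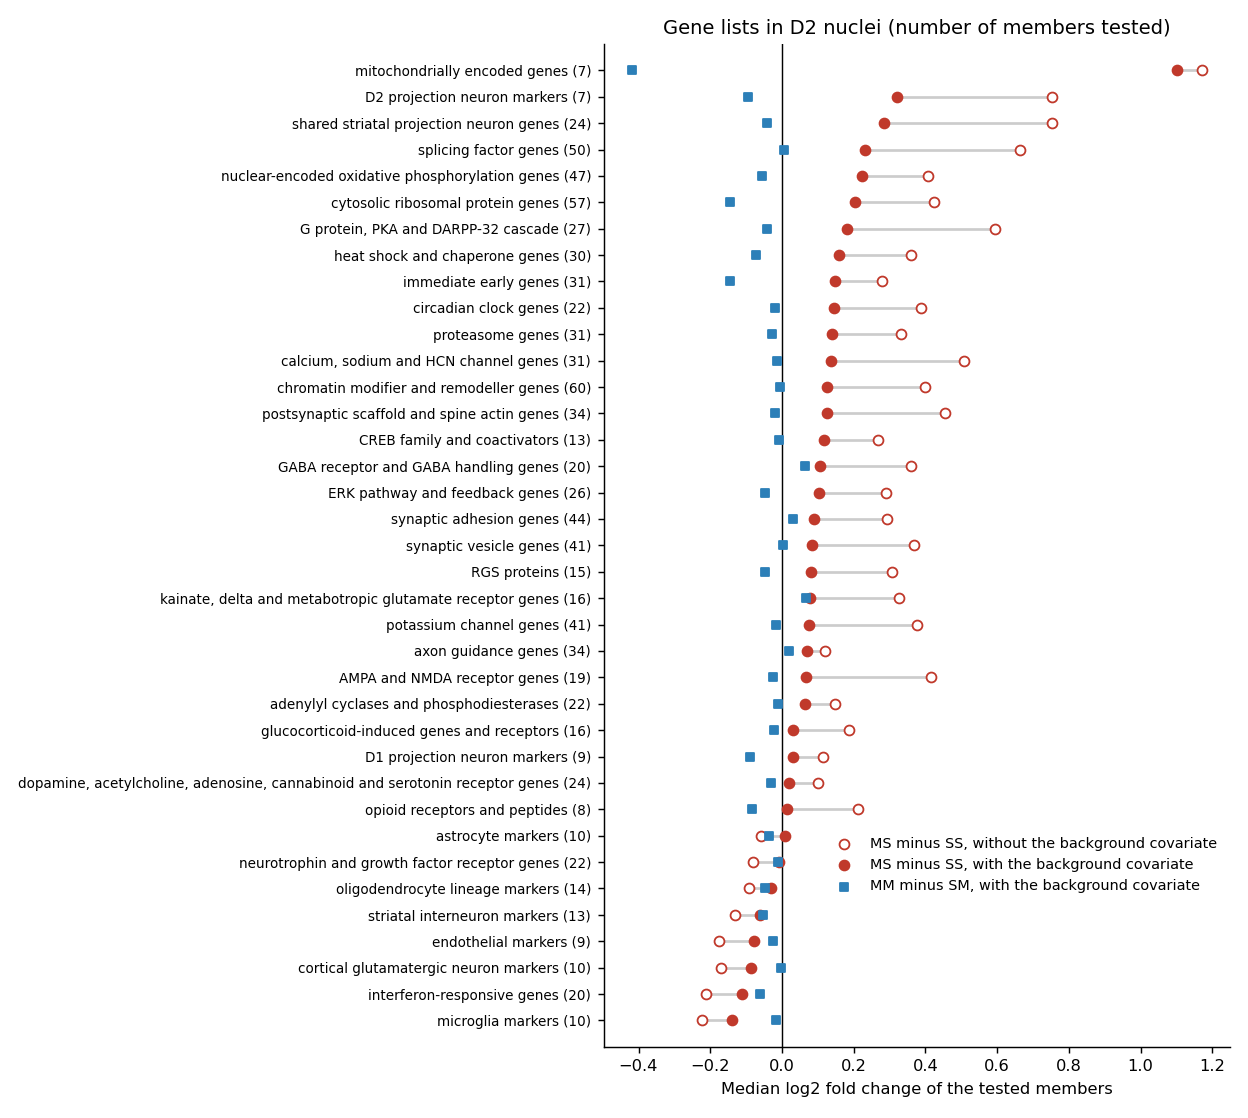
Median log2 fold change of the tested members of each of 37 gene lists (number tested in brackets), for MS minus SS with (filled circles) and without (open circles) the background covariate and for MM minus SM (squares). With the covariate 30 of the 37 MS medians lie above 0, and for 29 of these 30 the median without it is higher still. The squares lie near or below 0 for most lists. Over all tested genes at 2 times background or more, the medians with the covariate were 0.08 for MS minus SS and -0.05 for MM minus SM.

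Interferon-responsive genes and markers of microglia, cortical neurons and endothelial cells had medians below 0. Of 20 interferon-responsive genes, which cells switch on against viruses, 18 were lower in MS, with a median of -0.11 (-0.21 without the covariate). At an unadjusted p under 0.05 there were 4 (20%), against 13.8% of all genes tested and 12.7% of those under 2 times background. Oasl2, an antiviral gene of the oligoadenylate synthetase family, ran from 7.0 to 11.3 CPM in MS and from 11.03 to 13.5 in SS, with 7 of 8 MS libraries below every SS library and a fold change of -0.26 ± 0.09 (SE, edgeR adjusted p = 0.286). Microglia markers gave 8 of 10 lower (median -0.14), cortical neuron markers 8 of 10 (-0.09) and endothelial markers 6 of 9 (-0.08). Pecam1, an adhesion gene of endothelial cells, had -0.18 ± 0.06 (SE, edgeR adjusted p = 0.286). None of the microglia, cortical or endothelial markers lay at 2 times background or more, and 2 of the 20 interferon-responsive genes did. All tested genes of like level, at 1.39 to 1.53 times background, had a median of -0.04 with the covariate and -0.13 without it.

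Oligodendrocyte markers gave 9 of 14 lower (median -0.03), interneuron markers 10 of 13 (-0.06) and astrocyte markers 5 of 10 (0.01, and -0.06 with TMM from genes at 2 times background or more). Their part in the differences above was not tested. Within the oligodendrocyte list Cnp, at 2.13 times background, had 0.19 ± 0.07 (SE) and Mobp, at 1.59 times, -0.19 ± 0.07 (SE).

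Direction also varied with level over the whole table. When all tested genes were ranked by their level over background and divided into 10 groups, the lowest 10% had a median of 0.05, the sixth group (1.53 to 1.69 times background) the lowest median, -0.05, and the highest 10%, at 3.13 times background or more, a median of 0.15 with the covariate. Without it the values were -0.06, -0.11 and 0.41. After the MS libraries of low background were left out, the highest 10% had 0.10 with the covariate and 0.15 without it. The lists with high medians hold mostly genes well above background: the median level was 11.5 times background for the D2 markers, 5.08 for the shared striatal genes and 3.78 for the splicing factors, against 1.48 for the microglia markers and 1.53 for all genes. Whether the rest of these differences is background that the covariate did not take up was not tested.

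Genes of the mitochondrial genome had the largest median of the 37 lists. They made up 0.0136% of counts in the lowest MS library, 0.0258% at the median and 0.0395% in the highest (mean 0.0263 ± 0.00977%, SD, n = 8). In SS they made up 0.00894%, 0.0128% and 0.0207% (mean 0.0132 ± 0.00374%, SD, n = 7). The ranges overlap, with SS replicate 4 at 0.0207% and the other 6 SS libraries at 0.0139% or less. The means differed by 0.0131 points (two-sided exact permutation p = 0.00342, 0.0103 after adjustment over 3 library measures), and with each library left out in turn by 0.0112 to 0.0149 (exact permutation p from 0.00117 to 0.00666). This comparison was not among the planned results, and the share was not adjusted for the background. The list of these genes stood out in the same data, which the p-values do not take into account. Both kinds of mitochondrial gene took part: the 13 protein genes had 1380 ± 586 counts in MS (SD, n = 8) and 663 ± 176 in SS (SD, n = 7), and the ribosomal RNA genes had 3640 ± 1850 and 1752 ± 760.

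Of the 13 protein genes 7 passed the filter on low counts and were tested in the fit. All 7 were higher in MS and had an unadjusted p under 0.05, with a median of 1.10, while none passed over all genes (edgeR adjusted p from 0.286 to 0.337). mt-Co1, a catalytic subunit of cytochrome c oxidase (mitochondrial genome, 5328 to 6872), stood at 8.35, 18.7 and 24.2 CPM in MS and at 5.62, 6.61 and 10.3 in SS. Its fold change was 1.11 ± 0.34 (SE) and 6 of 8 MS libraries lay above every SS library. The complex I gene mt-Nd1 had 1.25 ± 0.41 and mt-Nd4 1.19 ± 0.38 (SE). The median was 1.17 without the covariate, 1.01 with the second background set and 0.46 after subtraction of the background, and the slope of mt-Co1 on the background did not pass (-0.49, edgeR adjusted p = 0.401). It was 0.73 without the MS libraries of low background, where 0 of 7 had an unadjusted p under 0.05. MS replicates 4 and 5 stood near the SS values, at 9.08 and 8.35 CPM of mt-Co1. Sorted nuclei should hold few mitochondria, and where these counts come from was not tested.

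**Figure D5:**
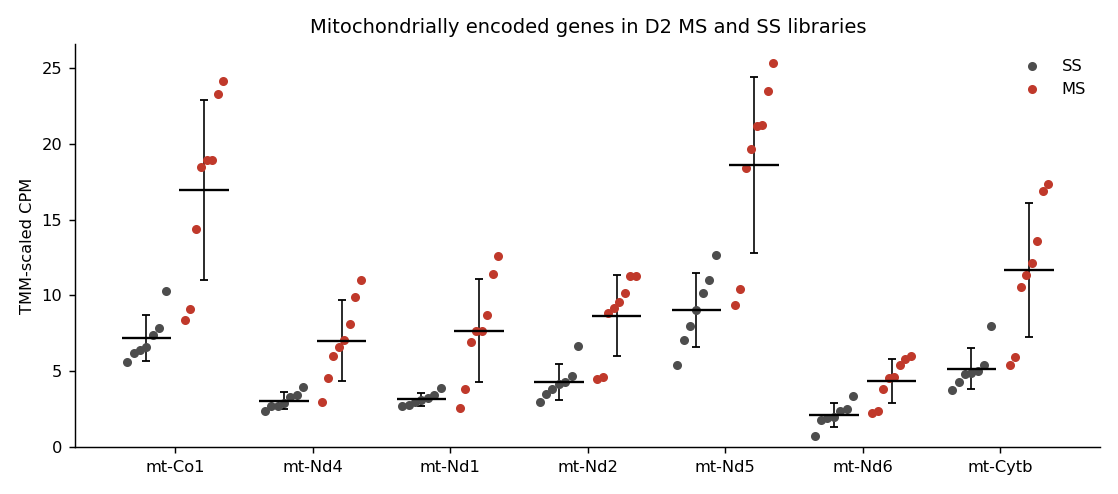
TMM-scaled CPM of the 7 tested mitochondrially encoded genes, 1 point per library in order of value, for the 7 SS and 8 MS libraries, with the mean (line) and SD (bar). For mt-Co1 the means are 17.0 in MS and 7.19 in SS, and 2 of the 8 MS libraries lie among the SS values.

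The same history before a morphine challenge, MM against SM, shares no library with MS and SS. It too gave 0 called genes of 41125 (0%), with 1596 at an unadjusted p under 0.05 (3.88%), 708 higher (1.72%) and 888 lower (2.16%), and a smallest adjusted p of 1.00. This balance too rests on the scaling, with 1521 higher and 434 lower under TMM from genes at 2 times background or more and 167 and 783 of 11183 after subtraction. Without the covariate the count was 3180, with 1653 higher and 1527 lower. Of the 20 leading genes above, 8 had the same sign there, and so did 54.4% of the 5682 genes with an unadjusted p under 0.05, against 53.6% of all genes tested. Dtymk stood at 10.3 ± 1.64 CPM in MM and 10.5 ± 0.635 in SM (SD, n = 7 each), a fold change of -0.16. The mitochondrially encoded genes had a median of -0.42 with 0 of 7 higher, and their share of counts was 0.0172 ± 0.00752% in MM and 0.0191 ± 0.0101% in SM (SD, n = 7 each). SM replicate 1 stood apart at 0.0390%, with the other 6 SM libraries at 0.00869% to 0.0239%. Without it the SM mean was 0.0158 ± 0.00545% (SD, n = 6), below that of MM, and the list median was 0.00 with 4 of 7 genes higher. List medians were -0.04 for shared striatal genes, -0.05 for oxidative phosphorylation, -0.14 for ribosomal protein and 0.00 for splicing factor genes, and -0.15 for immediate early genes. Beside them, the median was -0.01 over all genes tested and -0.05 over those at 2 times background or more. Of the 37 lists, 6 had a median above 0, against 30 in MS minus SS (24 with TMM from genes at 2 times background or more). These numbers of lists also depend on the scaling, and the rescaled number for MM minus SM was not computed.

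Whether the effect of history depended on the challenge was tested directly as the difference of both contrasts. 0 of 41125 genes were called (0%), with 3791 at an unadjusted p under 0.05 (9.22%), 2587 higher (6.29%) and 1204 lower (2.93%), and a smallest adjusted p of 0.0712, that of Dtymk at 0.49 ± 0.09 (SE). With TMM from genes at 2 times background or more 987 were higher and 3824 lower. The count fell to 1464 without the covariate (704 higher and 760 lower, smallest adjusted p = 0.991), to 567 of 11183 after subtraction, to 1744 of 42503 without the MS libraries of low background (smallest adjusted p = 0.996) and to 2525 without SM replicate 1. DESeq2 called Dtymk (0.50, adjusted p = 0.00853), as did edgeR with the size factors of DESeq2 (adjusted p = 0.0473), without MS replicate 4 (adjusted p = 0.0272) or without MM replicate 6 (adjusted p = 0.0452). Without MS replicate 4 Ywhag, a 14-3-3 protein gene outside the naming rule and chosen after its values were seen, was called as well, at 0.47 ± 0.08 (SE, adjusted p = 0.0318) against 0.43 with all libraries. Egr1 had 0.98 ± 0.31, Egr3 0.73 ± 0.19, Vamp2 0.82 ± 0.22 and mt-Nd1 1.80 ± 0.54 (SE, edgeR adjusted p = 0.468 each). Without SM replicate 1 mt-Nd1 had 1.24 ± 0.40 (SE, edgeR adjusted p = 0.802), and the median of the 7 mitochondrially encoded genes went from 1.43 to 0.94.

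The same comparison in D1 nuclei was set against that in D2 nuclei in a joint fit. It called 0 of 42870 genes (0%) for the difference between the cell types, with 2458 at an unadjusted p under 0.05 (5.73%) and, without the covariate, 10571 (24.7%) and again 0 called (0%), so that none of the values below is shown to differ between them. D1 SS replicate 1 stands apart with a background of 7.40% of counts, and without it the count was 3310 of 42833 (7.73%), again with 0 called (0%). The mitochondrial share was 0.0188 ± 0.00723% in D1 MS (SD, n = 9) and 0.0186 ± 0.00328% in D1 SS (SD, n = 8), and the mitochondrially encoded genes had a median of -0.05 there. The D2 markers had a median of -0.07 in D1 nuclei (-0.17 without D1 SS replicate 1), the shared striatal genes 0.15 (0.01), the splicing factors 0.10 (-0.01) and the oxidative phosphorylation genes 0.10 (0.03). Beside them, the D1 median was 0.03 (0.01) over all genes tested and 0.08 (0.01) over those at 2 times background or more.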

How the data were processed

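RNA of sorted D2 nuclei was compared between 8 MS and 7 SS libraries. The authors deposited counts per gene made with featureCounts on mm10, and used DESeq2, per the submitters' processing notes. The sources used here do not give the aligner, annotation release or strand setting, so overlapping and antisense genes are uncertain. The authors also deposited FPKM values, which served only to recover the gene length behind them: for 54281 of 54281 identifiers compared it equalled the whole gene span of GENCODE M21 (relative tolerance 1e-06). Of 55401 identifiers, 260 had no symbol.

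Counts of all 29 D2 libraries entered 1 robust quasi-likelihood model (edgeR 4.0.16 under R 4.3.3, TMM factors, low counts removed by filterByExpr) with the 4 groups and the centred log2 background density as a covariate, with two-sided tests and a Benjamini-Hochberg adjusted p under 0.05 over 41125 genes. MM against SM and the difference of both contrasts came from the same fit, the comparison with D1 from a fit of all 61 libraries. DESeq2 1.42.0 and limma 3.58.1 were alternatives. Measures of whole libraries were tested by exact permutation (two-sided). The fit was tested on counts simulated from the same model. It recovered 9 of 50 genes given a log2 difference of 0.25, 36 of 50 at 0.5 and 47 of 50 at 1, with 6 false calls. Since these counts follow the model, they cannot show whether the covariate takes up the background. Total counts of 15948986 to 23592399 limit precision for genes of a few CPM.

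Named were the 10 genes of smallest p in each direction among those of at least 1 log2 CPM and at least 2 times background, leaving out gene models, mitochondrial, ribosomal protein and receptor genes of the nose, then the members of smallest p in each list and a set of fixed genes. Mitochondrial and ribosomal protein genes are named from their lists. The comparison, the lists and the named genes were chosen with earlier results of these data known. Of 922 list entries in 37 lists, 914 were tested, and 0 were called. Some genes that the rule names are not reported here.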

Additional observations from a re-analysis of the deposited data

Results flagged for a closer look

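Over the named genes and 3 library measures, 200 groups of 7 or 8 libraries were searched for a single library far from the rest of its group, and 7 were found. Chance alone gives about 1 in 20.

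MS replicate 2, the library of lowest background, was the one set apart in 4 of the 7. It held 84.51 CPM of Egr1, against 13.73 to 46.08 in the other MS libraries, and 54.22 CPM of Tac1, against 16.08 to 28.46. Klf9, a glucocorticoid-induced transcription factor gene, stood at 114.1 CPM there, against 42.89 to 75.62. Bdnf, the gene of a neurotrophin, stood at 18.93 CPM, below the other MS libraries at 24.98 to 30.22.

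SS replicate 3 was set apart for Oprk1, with 18.98 CPM against 13.44 to 15.09 in the other SS libraries, and for Atp5g3, with 6.58 CPM against 3.375 to 4.59. SS replicate 4 held 0.02073% of its counts on the mitochondrial genome, against 0.008938% to 0.01392% in the other SS libraries. With that library left out, the difference between MS and SS was 0.0143 percentage points (exact permutation p = 0.00133).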

How the results depend on the processing

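No gene was called between MS and SS under most settings. The exceptions were DESeq2, with 1 gene higher (Dtymk), and leaving out MS replicate 8, with 1 lower (Gm22959, outside the naming rule, -1.20, edgeR adjusted p = 0.0105), so that over the 15 fits without 1 library the lower count ran from 0 to 1. For the difference of history effects between challenges, DESeq2 and its size factors in edgeR gave 1 gene each, and the fits without 1 library gave 0 to 2. Leaving out each MM and SM library, also added after the data were seen, gave 0 genes for MM against SM. Genes with an unadjusted p under 0.05, 5682 in all, ran from 3457 to 8182 over those fits. They numbered 2999 with the second background set, 2778 of 38944 in the 15 libraries alone, 2950 of 11183 after subtraction of the background, 5911 in limma voom and 6478 of 55284 without a filter. A replicate block gave 4826 and called 0 genes. Same-numbered MS and SS libraries had correlations of deviations from -0.16 to 0.12, and 2 of 7 matched their own number best, so the numbers were not taken as pairs. The background difference ran from -11.8 to -7.95 points with 1 library left out.

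Of 2799 alternative values for 97 named genes, 2761 kept direction and side of the threshold, 1 gained a call (Dtymk in DESeq2) and 37 turned sign, in 10 genes with small values. No named gene was called with all libraries, many were named for a small p in these same data, and the fits share most libraries. The number that kept is therefore no independent support. Without the covariate Bdnf turned to -0.074 and Pdyn to 0.11. With the second background set Drd2 turned to -0.0043, Sgk1 to -0.031 and Oprd1 to -0.076. After subtraction Cnr1 stood at -0.068, Sgk1 at -0.23, Fos at -0.34, Fosb at -0.13 and Oprd1 at -0.16. With TMM from genes at 2 times background or more Creb1 stood at -0.014, Sgk1 at -0.034, Oprm1 at -0.049, Fos at -0.022, Fosb at -0.020 and Oprd1 at -0.052. Without the MS libraries of low background, an alternative added after the data were seen, Drd2 stood at -0.046, Creb1 at -0.026, Sgk1 at -0.015, Oprm1 at -0.021 and Fos at -0.030, and without the covariate as well Creb1 at -0.015, Oprm1 at -0.021 and Fos at -0.014. Fos was -0.056 under the replicate block, and in the 15 libraries alone Fosb was -0.028 and Oprd1 -0.0046. With 1 library left out, Pdyn ran from -0.055 to 0.017, Fos from -0.015 to 0.13, Fosb from -0.032 to 0.11 and Oprd1 from -0.016 to 0.045. The cause of these turns was not tested.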
